A study of Mus musculus with 6 samples.

Results

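The antioxidant defence genes described here were *Sod1*, *Sod2*, *Cat*, *Gpx1*, *Gpx4*, *Prdx3*, *Prdx5*, *Txnrd1*, *Hmox1* and *Nfe2l2*, 10 genes of the 51802 gene symbols listed. They were chosen by name, as genes known for disposing of superoxide and peroxides or for controlling that response, and all 10 passed the filter on low counts that left 17136 genes for testing. Bulk RNA-seq was performed on cochleae of 2 months old mice of 2 genotypes, wildtype (3 samples, numbered 3, 4 and 5) and *Pou4f3(Δ/+)* (3 samples, numbered 1, 2 and 3), the latter heterozygous for a knock-in deletion allele of *Pou4f3*, a transcription factor of inner ear hair cells. Both groups were C57/BL6J littermates, a background that carries the age-related hearing loss allele *Cdh23(ahl)*. The allele was in the germ line, so every cell of the mutant carried it, and the RNA came from whole cochleae rather than from sorted hair cells. The samples of a genotype are listed as separate, with nothing more on which animals they came from, so the p-values measure the spread between these samples.

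Cells produce superoxide mainly as a by-product of mitochondrial respiration and through NADPH oxidases. Superoxide dismutases turn it into hydrogen peroxide, and catalase, glutathione peroxidases and peroxiredoxins then reduce the peroxide, with glutathione and thioredoxin as electron donors. The transcription factor Nrf2, encoded by *Nfe2l2*, induces many genes of this defence under oxidative or electrophilic stress. Hair cells and the cells of the lateral wall respire heavily, and oxidative stress is a long studied component of hearing loss with age, noise and ototoxic drugs.

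None of the 10 genes differed between *Pou4f3(Δ/+)* and wildtype cochleae at an adjusted p under 0.05 (edgeR's quasi-likelihood test with Benjamini-Hochberg adjustment over 17136 genes), and none had an unadjusted p under 0.05. DESeq2 on the same counts also called 0 of the 10. These counts stand beside a background in which edgeR called 0 genes, or 0% of those tested, 7.64% of all genes had an unadjusted p under 0.05, and DESeq2 called 64 genes, or 0.373%. The 10 log2 fold changes lay between -0.18 (*Prdx5*) and 0.13 (*Prdx3*), 6 above 0 and 4 below, with a median of 0.02 against -0.003 over all genes tested. The groups overlapped for all 10 genes in CPM (gene counts scaled to a common library size by TMM), whereas 12.7% of all genes had groups that did not overlap. Each sample held 1248 to 17151 counts of each gene, and the 95% intervals of the fold changes ran from 0.73 at the lowest (*Prdx5*) to 1.33 at the highest (*Hmox1*). In whole cochlear RNA, fewer cells of a type and less RNA per cell cannot be told apart.

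Summed counts were 14295069 to 17696784 per sample. *Pou4f3* itself was listed at 1.67, 2.13 and 2.17 FPKM (a count divided by transcript length in kilobases and by sample depth) in wildtype samples 3, 4 and 5 and at 1.58, 2.65 and 1.5 FPKM in *Pou4f3(Δ/+)* samples 1, 2 and 3, and since the transcripts of both alleles are counted together this does not check the genotypes. The 13 hair cell markers summed to 224 to 238 CPM in wildtype and 227 to 247 CPM in *Pou4f3(Δ/+)* samples, and all 13 were detected. Markers of blood cells were more abundant, with 12786 to 15144 and 12519 to 15390 summed CPM of neutrophil markers and 9136 to 10745 and 9988 to 14112 summed CPM of erythroid markers in wildtype and *Pou4f3(Δ/+)* samples. *Pou4f3(Δ/+)* samples 1 and 2 stood apart, with 689 and 745 summed CPM of the 10 B cell markers against 432 in sample 3 and 379 to 424 in wildtype. The part of these cells in the results was not tested.

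The antioxidant genes spanned a wide range of levels. Per transcript length, *Gpx1* stood at 849 ± 101 FPKM (SD over all 6 samples, as for the other levels in this order) and ranked 35 of the 17136 genes tested. A second tier comprised *Sod1* (137 ± 6.61 FPKM), *Prdx5* (134 ± 18.6 FPKM) and *Gpx4* (132 ± 3.77 FPKM), whose ranges overlapped. The third tier held *Hmox1* (71.3 ± 10.9 FPKM), *Nfe2l2* (66.6 ± 3.78 FPKM), *Cat* (65.4 ± 4.50 FPKM) and *Prdx3* (63.0 ± 5.19 FPKM), again with overlapping ranges. *Txnrd1* (30.3 ± 1.62 FPKM) and *Sod2* (28.7 ± 1.98 FPKM) were the lowest and overlapped each other, yet *Sod2* still ranked 3153 of 17136. The steps from *Gpx1* to *Sod1*, from *Gpx4* to *Hmox1* and from *Prdx3* to *Txnrd1* were seen in 6 of 6 samples with no overlap of ranges, in both genotypes.

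**Figure D1:**
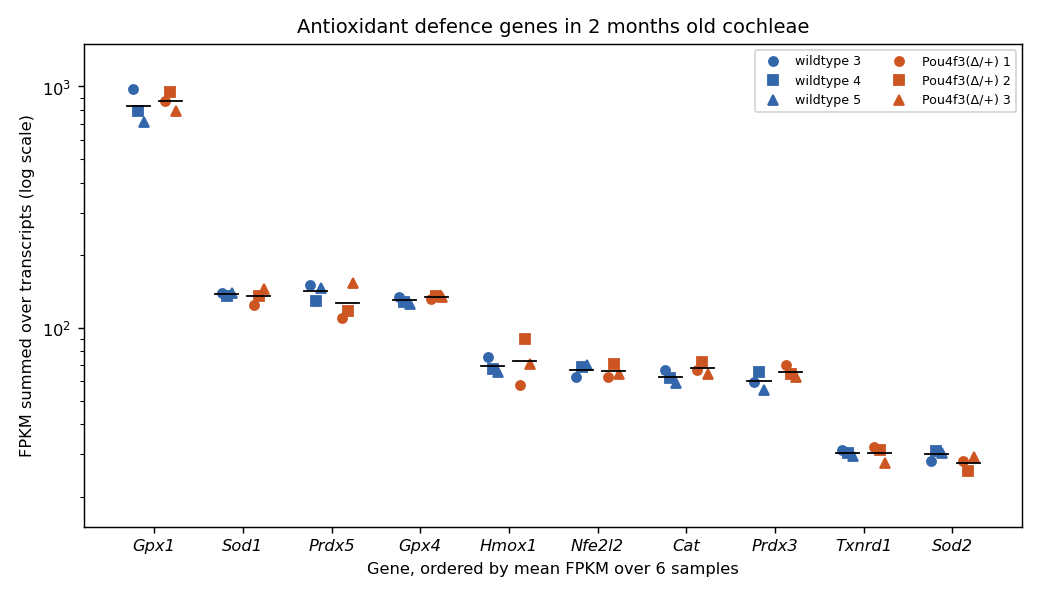
FPKM of each antioxidant defence gene (vertical axis, log scale) in the 3 wildtype (blue) and 3 *Pou4f3(Δ/+)* (orange) samples, with genes ordered by their mean over 6 samples and black lines at the genotype means. *Gpx1* lies between 716 and 975 FPKM, far above the rest, and the 2 genotypes overlap for every gene.

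The superoxide dismutases are the first enzymes of the pathway. *Sod1* (ENSMUSG00000022982, GRCm38 chr16:90220754-90226329, + strand) encodes the copper-zinc enzyme of the cytosol and was listed at 140, 135 and 139 FPKM in wildtype samples 3, 4 and 5 and at 125, 135 and 145 FPKM in *Pou4f3(Δ/+)* samples 1, 2 and 3. The wildtype samples sat close together inside the range of the mutant ones. *Sod1* had a log2 fold change of -0.03 ± 0.08 (SE, n = 3 per genotype), with a 95% interval of -0.20 to 0.14 and an adjusted p of 0.929 (edgeR). The processed pseudogene *Gm8566* matches the *Sod1* transcript at 97.8% identity over 465 of its 641 bases and took 6.28% to 8.36% of the counts of the pair, so the split between them is uncertain. Their summed level was 96.5 ± 1.72 CPM in wildtype and 93.5 ± 6.44 CPM in *Pou4f3(Δ/+)* samples (SD, n = 3), and the groups overlapped.

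*Sod2* (ENSMUSG00000006818, chr17:13006846-13040063, + strand) encodes the manganese enzyme of the mitochondrial matrix. Its values were 28.2, 31.0 and 30.4 FPKM in the wildtype and 28.0, 25.5 and 29.1 FPKM in *Pou4f3(Δ/+)* samples. Wildtype samples 4 and 5 were above every mutant sample, and wildtype sample 3 was not. *Sod2* had the smallest unadjusted p of the 10 genes, 0.141 in edgeR, with a log2 fold change of -0.12 ± 0.07 (SE), a 95% interval of -0.29 to 0.05 and an adjusted p of 0.696. The exact permutation test on FPKM gave a two-sided p of 0.2, where 0.1 is the smallest that 3 against 3 samples allow. The sign of the *Sod2* difference held in all 14 alternatives, from -0.16 to -0.06. Here and for the genes below, the alternatives reuse these 6 samples or some of them, so a shared sign is not independent support.

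Catalase and the glutathione peroxidases reduce the hydrogen peroxide that the dismutases make. *Cat* (ENSMUSG00000027187, chr2:103453849-103485160, - strand), the peroxisomal catalase that is also abundant in red blood cells, stood at 67.1, 62.2 and 59.4 FPKM in the wildtype and 66.8, 72.4 and 64.7 FPKM in *Pou4f3(Δ/+)* samples. Sample 2 of the mutant was the highest and wildtype sample 3 lay within the mutant range. The log2 fold change of *Cat* was 0.11 ± 0.08 (SE; 95% interval -0.08 to 0.30; adjusted p = 0.743, edgeR) and stayed above 0 in all 14 alternatives. It fell to 0.02 ± 0.11 when *Pou4f3(Δ/+)* sample 3 alone was set against wildtype. Here and below, the SE of a fit with that sample alone holds no spread between mutant samples. All 11 erythroid markers tested had log2 fold changes above 0, 3 with an unadjusted p under 0.05 (7.64% of all genes). *Pou4f3(Δ/+)* samples 1 and 2 had the 2 highest erythroid sums (12898 and 14112 CPM). Their part in the *Cat* values was not tested.

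*Gpx1* (ENSMUSG00000063856, chr9:108338903-108340343, + strand) encodes the main glutathione peroxidase of the cytosol and mitochondria. It was listed at 975, 790 and 716 FPKM in the wildtype and at 873, 950 and 789 FPKM in *Pou4f3(Δ/+)* samples. The wildtype samples included both the highest and the lowest value, so the mutant samples lay inside their range. Between genotypes *Gpx1* had a log2 fold change of 0.09 ± 0.13 (SE; 95% interval -0.20 to 0.39; adjusted p = 0.860, edgeR). Without wildtype sample 3 it was 0.23, and with *Pou4f3(Δ/+)* sample 3 alone it turned to -0.06 ± 0.16, in a fit that leaves out both other mutant samples. Leaving out a single sample gave 0.02 to 0.23, always above 0. *Gpx1* is also strongly expressed in red blood cells, and the part of the erythroid cells in its values was not tested.

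*Gpx4* (ENSMUSG00000075706, chr10:80047166-80056439, + strand) encodes the peroxidase that reduces lipid hydroperoxides in membranes and guards against ferroptosis. Its values were 134, 128 and 126 FPKM in the wildtype and 132, 136 and 134 FPKM in *Pou4f3(Δ/+)* samples. They were the tightest of the 10 genes relative to their mean, and wildtype sample 3 lay among the mutant samples. *Gpx4* had a log2 fold change of 0.03 ± 0.07 (SE), and its 95% interval of -0.12 to 0.19 was among the narrowest measured here (adjusted p = 0.914, edgeR). Sequences almost identical to *Gpx4* exist in the genome, *Gpx4-ps2* with 99.7% identity over 762 of 959 bases and *AC122253.3* with 95.1% over 535 bases. Neither is listed in the files, so reads from them could have been counted in *Gpx4*.

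*Gpx1*, *Gpx4* and *Txnrd1* are selenoproteins, in which a TGA codon, normally a stop, is read as selenocysteine, the residue of the active site. The codon and its neighbours in the main transcript of each gene are shown because this reading is what sets these 3 genes apart from the other members (5′ to 3′, TGA in capitals, from the GENCODE M21 transcripts of GRCm38).
Gpx1: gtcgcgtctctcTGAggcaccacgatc
Gpx4: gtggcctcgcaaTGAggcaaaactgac
Txnrd1: cagtctggctgcTGAggt
The codon is number 47 of 201 in *Gpx1* (chr9:108339451-108339453, + strand), number 73 of 197 in *Gpx4* (chr10:80054737-80054739, + strand) and number 498 of 499 in *Txnrd1* (chr10:82896037-82896039, + strand), where the coding sequence ends a single residue later. The log2 fold changes of these 3 selenoprotein genes (0.09, 0.03 and 0.00) all had intervals that included 0. The 10 genes of selenoprotein synthesis include the selenium carrier *Selenop* (0.07 ± 0.10, SE), the elongation factor *Eefsec* (-0.14 ± 0.10) and *Trnau1ap* (-0.14 ± 0.12). Of these 10, 0 passed the adjusted test and 0 had an unadjusted p under 0.05 (edgeR), beside 0% and 7.64% of all genes. Their log2 fold changes ran from -0.21 (*Pstk*) to 0.08 (*Sephs1*), with a median of 0.00.

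The peroxiredoxins reduce peroxides with electrons from thioredoxin. *Prdx3* (ENSMUSG00000024997, chr19:60864051-60874556, - strand) encodes the mitochondrial member and was listed at 59.6, 65.5 and 55.3 FPKM in the wildtype and 70.4, 64.6 and 62.6 FPKM in *Pou4f3(Δ/+)* samples. Its mutant mean was higher, with wildtype sample 4 above mutant samples 2 and 3. The log2 fold change of 0.13 ± 0.09 (SE; 95% interval -0.06 to 0.33; adjusted p = 0.706, edgeR) was the highest of the 10 genes. It stayed above 0 in all 14 alternatives, with 0.04 ± 0.12 for *Pou4f3(Δ/+)* sample 3 alone against wildtype.

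*Prdx5* (ENSMUSG00000024953, chr19:6906697-6910106, - strand) encodes a peroxiredoxin found in mitochondria, peroxisomes and the cytosol. Its values were 151, 129 and 146 FPKM in the wildtype and 110, 117 and 153 FPKM in *Pou4f3(Δ/+)* samples. Mutant samples 1 and 2 were below every wildtype sample, and mutant sample 3 was above every wildtype sample. *Prdx5* had the largest difference of the 10 genes, a log2 fold change of -0.18 ± 0.12 (SE; 95% interval -0.46 to 0.09; adjusted p = 0.713, edgeR). It was -0.32 without *Pou4f3(Δ/+)* sample 3 (adjusted p = 0.141, edgeR, the lowest of any of the 10 genes in any alternative) and 0.07 ± 0.12 with that sample alone, so the sign depended on which mutant samples were used. The 2 low samples were those with the high B cell and erythroid sums. Their neuron marker sums (1659 and 1488 CPM) were below wildtype (1828 to 1990 CPM), and that of mutant sample 3 was above it (2019 CPM). The part of these cells in the *Prdx5* values was not tested. The exons of *Prdx5* overlap those of *Trmt112*, on the opposite strand, by 409 bases, and the sources used here do not say whether counting used the strand. *Trmt112* was listed at 26.6, 19.5 and 23.7 FPKM in the wildtype and 22.4, 25.1 and 23.1 FPKM in *Pou4f3(Δ/+)* samples, with a log2 fold change of 0.03 ± 0.14 (SE; adjusted p = 0.959, edgeR).

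*Txnrd1* (ENSMUSG00000020250, chr10:82833951-82897712, + strand) encodes the cytosolic thioredoxin reductase, which regenerates reduced thioredoxin. It was listed at 31.3, 30.4 and 29.6 FPKM in the wildtype and 32.1, 31.1 and 27.5 FPKM in *Pou4f3(Δ/+)* samples. The wildtype values lay inside the mutant range, with mutant sample 3 the lowest of all. The log2 fold change was 0.00 ± 0.08 (SE; 95% interval -0.17 to 0.18; adjusted p = 0.989, edgeR), and its sign differed between alternatives, which ran from -0.13 to 0.07.

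*Hmox1* (ENSMUSG00000005413, chr8:75093621-75100589, + strand) encodes heme oxygenase 1, the inducible enzyme that breaks heme down to biliverdin, iron and carbon monoxide, and is abundant in macrophages that recycle red blood cells. Its values were 76.1, 67.3 and 65.6 FPKM in the wildtype and 58.1, 90 and 70.8 FPKM in *Pou4f3(Δ/+)* samples. Mutant samples 1 and 2 were the lowest and the highest of all 6, and the SD was 16.1 FPKM in *Pou4f3(Δ/+)* against 5.65 FPKM in wildtype samples (n = 3 each). The log2 fold change of 0.07 ± 0.15 (SE; 95% interval -0.28 to 0.41; adjusted p = 0.926, edgeR) had the widest error of the 10 genes. Leaving out a single mutant sample moved it from 0.21 (without sample 1) to -0.13 (without sample 2). The macrophage markers summed to 3478, 2601 and 2846 CPM in wildtype and 2680, 2652 and 2961 CPM in *Pou4f3(Δ/+)* samples, and their part in the *Hmox1* values was not tested.

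*Nfe2l2* (ENSMUSG00000015839, chr2:75675513-75704641, - strand), which encodes Nrf2, stood at 62.6, 68.7 and 70.3 FPKM in the wildtype and 62.7, 70.9 and 64.6 FPKM in *Pou4f3(Δ/+)* samples. The groups covered almost the same range. This gave a log2 fold change of -0.03 ± 0.08 (SE; 95% interval -0.22 to 0.16; adjusted p = 0.947, edgeR). Nrf2 is controlled largely by the stability of the protein, which RNA levels do not show.

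**Figure D2:**
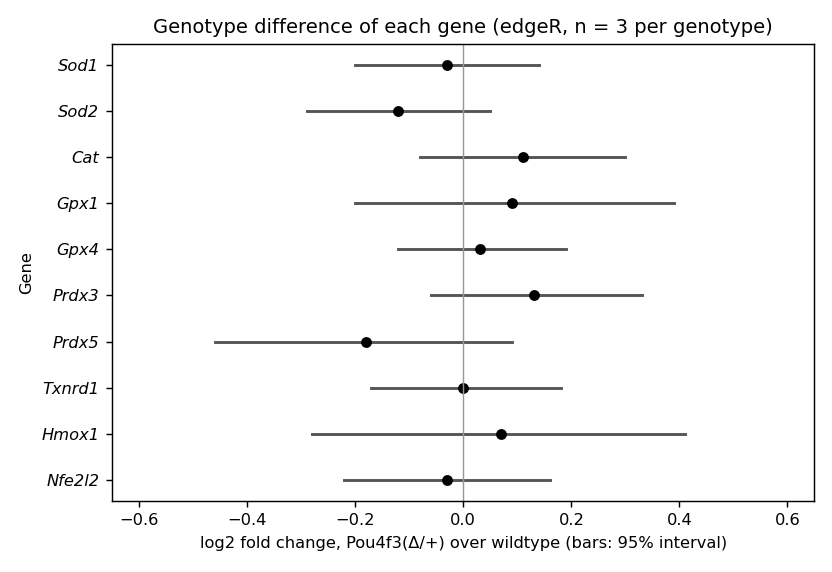
Log2 fold change of each antioxidant defence gene in *Pou4f3(Δ/+)* over wildtype cochleae (points; bars are 95% intervals from edgeR's quasi-likelihood fit, n = 3 per genotype). All 10 intervals include 0, from the narrow interval of *Gpx4* (-0.12 to 0.19) to the wide one of *Hmox1* (-0.28 to 0.41).

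Sample by sample, the 10 genes did not move as a block. *Hmox1* in *Pou4f3(Δ/+)* sample 2 was 0.37 above the mean of the 6 samples on the log2 CPM scale, the largest single deviation, and in *Pou4f3(Δ/+)* sample 1 it was 0.29 below. *Gpx1* was 0.20 above its mean in wildtype sample 3 and in *Pou4f3(Δ/+)* sample 2, and *Cat* and *Hmox1* were also above their means in those 2 samples. *Prdx5* was below its mean in wildtype sample 4 and *Pou4f3(Δ/+)* samples 1 and 2 and above it in the other 3. *Gpx4*, *Txnrd1*, *Sod1*, *Sod2* and *Nfe2l2* stayed within 0.15 of their means in every sample.

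**Figure D3:**
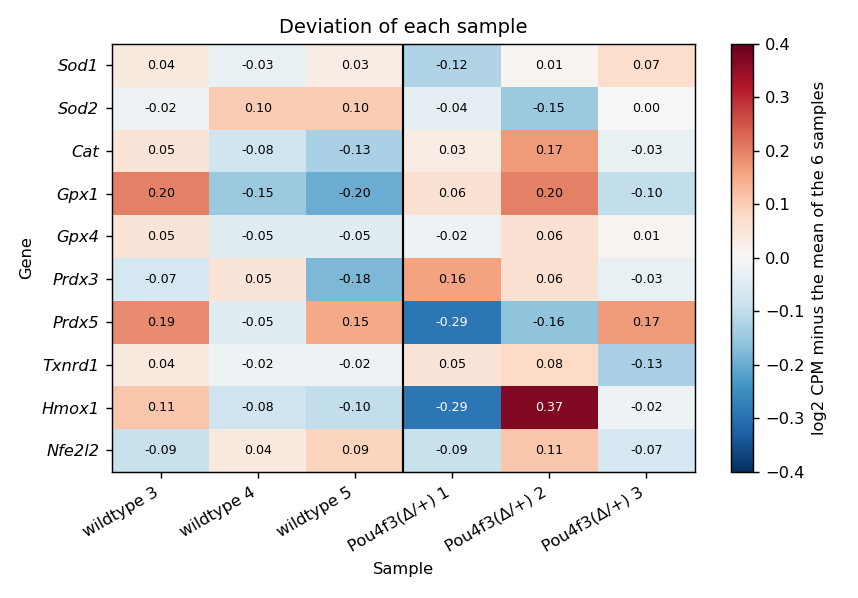
Log2 CPM of each antioxidant defence gene minus its mean over the 6 samples (colour and printed value; columns are samples, the line separates wildtype from *Pou4f3(Δ/+)*). The deviations change sign within each genotype for every gene but *Sod2*, and the extremes are *Hmox1* in *Pou4f3(Δ/+)* samples 2 (0.37) and 1 (-0.29) and *Prdx5* in sample 1 (-0.29).

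**Figure D4:**
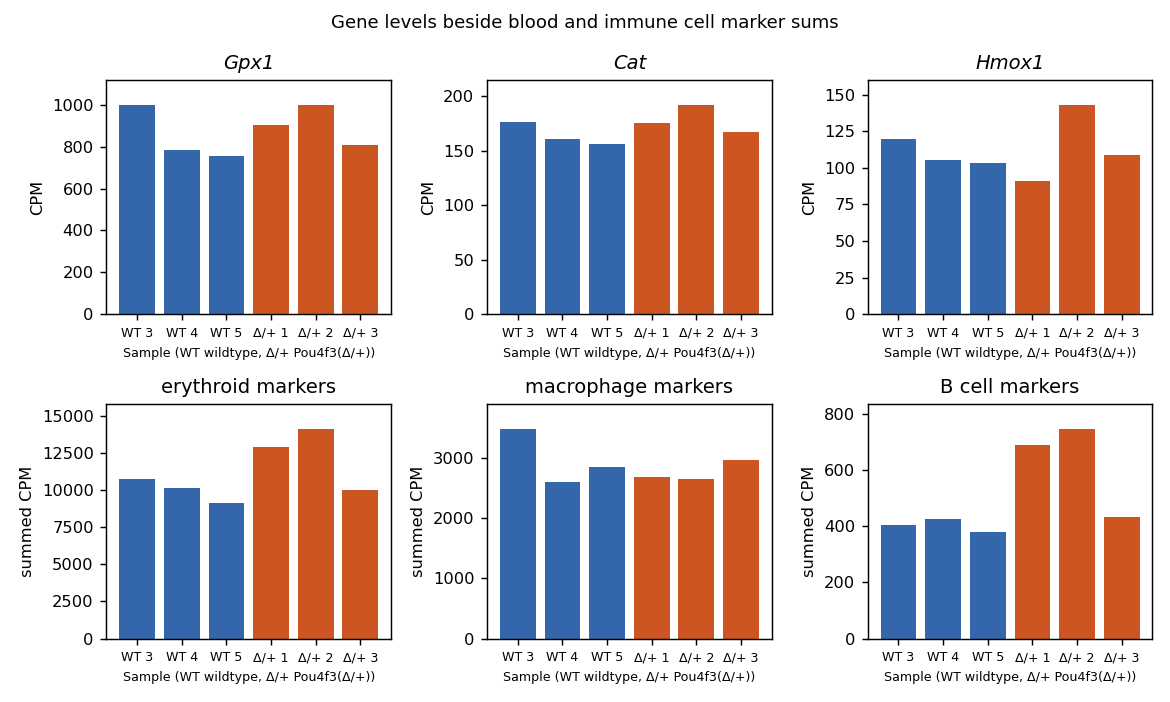
CPM of *Gpx1*, *Cat* and *Hmox1* (top) and summed CPM of erythroid, macrophage and B cell marker lists (bottom) in each sample, wildtype in blue and *Pou4f3(Δ/+)* in orange, all axes from 0. *Pou4f3(Δ/+)* samples 1 and 2 have the highest erythroid (12898 and 14112) and B cell (689 and 745) sums.

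The files list 32 transcripts of the 10 genes, of which 20 passed the filter on low counts and 5 were at 0 in all samples. No transcript of the 10 genes differed between genotypes at an adjusted p under 0.05 or an unadjusted p under 0.05 (edgeR over 38347 transcripts). Over all transcripts edgeR called 0, or 0%, and 4.14% had an unadjusted p under 0.05. *Sod1*, *Sod2*, *Cat* and *Prdx3* had 100% of their FPKM in a single transcript, *Hmox1* 99.6% and *Nfe2l2* 98.8%. *Gpx1* was carried by ENSMUST00000082429 (88.3% of the gene's FPKM), *Gpx4* by ENSMUST00000105372 (90.3%) and *Prdx5* by ENSMUST00000025904 (86.8%) with ENSMUST00000149261 (12.5%).

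*Txnrd1* was spread over ENSMUST00000020484 (56.8%), ENSMUST00000219962 (29.7%) and ENSMUST00000219442 (12%). The third of these ranged from 5.62% to 22.5% of the gene's FPKM between samples, with the highest share in *Pou4f3(Δ/+)* sample 3, and had a log2 fold change of 0.24 ± 0.46 (SE; adjusted p = 0.999, edgeR). Expected counts divide reads shared by similar transcripts by estimation, so the values of single transcripts are less certain than those of the gene. In *Gpx1*, the minor transcript ENSMUST00000193987 took from 1.80% to 14% of the gene's FPKM in single samples.

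The promoters were searched for TGACNNNGC and TGAGNNNGC, the core letters of the antioxidant response element that Nrf2 binds with small Maf proteins, on both strands of 300 bases around each start site (RefSeq, GRCm38.p6). At least 1 of the 2 forms was found in 27.8% of 32851 mouse promoters, TGACNNNGC in 12.4% and TGAGNNNGC in 17.6%. An entry was found for 9 of the 10 genes, without *Hmox1*, and 3 of their 14 promoters held the element, all as TGACNNNGC, 1 each of *Sod1*, *Txnrd1* and *Nfe2l2*. The stretches with the match are shown for *Sod1* and *Txnrd1*, an abundant and a less abundant gene that carry the letters of the factor that *Nfe2l2* encodes (strand of the gene, 5′ to 3′, match in capitals, read on the opposite strand).
Sod1: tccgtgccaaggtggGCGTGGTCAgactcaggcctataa
Txnrd1: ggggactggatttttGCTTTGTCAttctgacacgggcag
The *Sod1* stretch is chr16:90220691-90220729 (+ strand), with the match at -56 to -48 from the start site, and the *Txnrd1* stretch is chr10:82859099-82859137 (+ strand), with the match at -92 to -84 from its second listed start site. A match in letters is a description of the window and not evidence of binding. Of the 27 listed Nrf2 target genes, 22 had an entry, and 13 of their 29 promoters held either form. That list includes *Txnrd1* and *Hmox1*, so the *Txnrd1* promoters are counted in both sets.

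The other genes of the pathway were taken from 11 lists that hold 115 genes, 105 of which were tested, 95 of them besides the 10 genes above. At an adjusted p under 0.05, edgeR called 0 of the 95 and DESeq2 called 3 (0.373% of all genes were called by DESeq2). An unadjusted p under 0.05 was reached by 10 of the 95, or 10.5% against 7.64% of all genes, 4 higher and 6 lower in *Pou4f3(Δ/+)* cochleae. The median log2 fold change of the 95 genes was -0.06 against -0.003 over all genes.

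The 3 genes called by DESeq2 were *Gstm1*, *Gstt1* and *Bach2*. *Gstm1*, a cytosolic glutathione transferase and a known Nrf2 target, was listed at 153, 129 and 148 FPKM in the wildtype and 98.5, 106 and 117 FPKM in *Pou4f3(Δ/+)* samples. All mutant samples were below all wildtype samples. Its log2 fold change was -0.43 ± 0.09 (SE), with an adjusted p of 0.643 in edgeR and 0.0278 in DESeq2. *Gstt1*, of the theta class, was listed at 19.1, 18.8 and 22.1 FPKM in the wildtype and 12, 11.6 and 14.9 FPKM in *Pou4f3(Δ/+)* samples, again without overlap. Its log2 fold change was -0.67 ± 0.14 (SE), with an adjusted p of 0.643 in edgeR and 0.0359 in DESeq2. *Gstm* and *Gstt* genes are families of close paralogs that can share reads, which makes the values of single members uncertain.

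*Bach2* encodes a repressor that binds antioxidant response elements with small Maf proteins and is best known from B cells. It stood at 3.09, 4.67 and 3.15 FPKM in the wildtype and 7.30, 7.74 and 4.64 FPKM in *Pou4f3(Δ/+)* samples, with mutant samples 1 and 2 well above the rest and sample 3 about level with wildtype sample 4. In CPM it stood at 24.8, 32.3 and 27.1 in wildtype and 50.7, 62.3 and 38.1 in *Pou4f3(Δ/+)* samples, without overlap. *Bach2* had a log2 fold change of 0.84 ± 0.18 (SE), with an adjusted p of 0.643 in edgeR and 0.00325 in DESeq2. The B cell markers moved with it, since 10 of 10 had a log2 fold change above 0, 9 with an unadjusted p under 0.05 (7.64% of all genes). Their sums did not overlap between genotypes (379 to 424 CPM in wildtype, 432 to 745 CPM in *Pou4f3(Δ/+)*, with no marker at 0). Their part in the *Bach2* difference was not tested. Without *Pou4f3(Δ/+)* sample 3, edgeR called *Bach2* (log2 fold change 1.01, adjusted p = 0.023) and *Gstt1* (-0.79, adjusted p = 0.0409). With that sample alone against wildtype the log2 fold changes were 0.44 ± 0.16 for *Bach2*, -0.43 ± 0.17 for *Gstt1* and -0.32 ± 0.13 for *Gstm1* (SE).

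By list, the glutathione transferases had the lowest median log2 fold change, -0.20 against -0.003 over all genes, with 15 of 20 tested genes below 0 and 5 above. They ran from -0.67 (*Gstt1*) to 0.80 ± 0.58 (SE, *Gstp1*), so the largest change of the list was upward. An unadjusted p under 0.05 was reached by 3 genes (7.64% of all genes), all lower (*Gstm1*, *Gstt1* and *Gsta4*). In the superoxide dismutation list all 4 genes were below 0 (median -0.19), from *Sod1* at -0.03 to the secreted dismutase *Sod3* at -0.51 ± 0.22 (SE; unadjusted p = 0.0463, adjusted p = 0.643, edgeR). *Sod3* was listed at 4.39, 4.73 and 7.55 FPKM in the wildtype and 3.22, 4.26 and 4.29 FPKM in *Pou4f3(Δ/+)* samples, so that the groups did not overlap, with wildtype sample 5 well above the others. Without wildtype sample 5 the log2 fold change of *Sod3* was -0.22 ± 0.16 (SE). *Ccs*, the copper chaperone of *Sod1*, stood at -0.27 ± 0.14 (SE; unadjusted p = 0.081, edgeR). The bone markers were also lower in the mutant samples, at 1836 to 2640 summed CPM in wildtype and 1534 to 1787 in *Pou4f3(Δ/+)*, highest in wildtype sample 5, with 6 of 8 below 0 and none at 0. Averaged as log2(CPM + 1) over the list instead, the bone markers overlapped between genotypes (6.76, 6.93 and 6.86 in wildtype, 6.41, 6.45 and 6.78 in *Pou4f3(Δ/+)*) and were highest in wildtype sample 4. Supporting cell and stria markers summed to 6504 to 8520 CPM in wildtype and 6116 to 6613 CPM in *Pou4f3(Δ/+)* samples, with 6 of 10 below 0, and neuron markers to 1828 to 1990 and 1488 to 2019 CPM, with 5 of 6 below 0. The part of bone, supporting, strial and nerve cells in the values of *Sod3* and of the glutathione transferases was not tested.

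In the catalase and glutathione peroxidase list 4 of 8 tested genes were above 0 and 4 below, with a median of 0.01. The secreted peroxidase *Gpx3* was the most abundant gene of this list after *Gpx1*, at 318 ± 41.6 FPKM in the wildtype and 317 ± 74.4 FPKM in *Pou4f3(Δ/+)* samples (SD, n = 3), with a log2 fold change of -0.01 ± 0.18 (SE; adjusted p = 0.993, edgeR). *Gpx8*, a peroxidase of the endoplasmic reticulum, had the smallest p of the list and groups that did not overlap, with a log2 fold change of -0.24 ± 0.11 (SE; unadjusted p = 0.0533, adjusted p = 0.643, edgeR). *Gpx6* followed at -0.74 ± 0.39 (SE; unadjusted p = 0.0928, edgeR), from a mean of only 0.735 FPKM, and was -0.47 ± 0.45 without wildtype sample 5. *Gpx2* stood at 0.17 ± 0.20. Among peroxiredoxins and sulfiredoxin 5 of 7 were below 0 (median -0.12), from *Srxn1*, which restores overoxidized peroxiredoxins, at -0.34 ± 0.18 (SE) to *Prdx2*, the main peroxiredoxin of red blood cells, at 0.15 ± 0.12. Both of these rested largely on wildtype sample 5, without which they were -0.07 ± 0.10 and 0.03 ± 0.10. *Prdx4*, the peroxiredoxin of the endoplasmic reticulum, had the smallest p of the list, with a log2 fold change of -0.29 ± 0.13 (SE; unadjusted p = 0.0519, adjusted p = 0.643, edgeR). The cytosolic *Prdx1* was listed at 174 ± 7.07 FPKM in the wildtype and 163 ± 7.25 FPKM in the *Pou4f3(Δ/+)* samples (SD, n = 3). Without *Pou4f3(Δ/+)* sample 3 *Prdx4* was -0.44 ± 0.10, and with that sample alone against wildtype it was -0.03. None of these 7 peroxiredoxin and sulfiredoxin genes had an unadjusted p under 0.05 in edgeR, beside 7.64% of all genes.

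Thioredoxin and glutaredoxin genes had 5 of 10 above 0 and a median of 0.00, with *Glrx5*, a mitochondrial glutaredoxin of iron-sulphur cluster assembly that erythroid cells need for heme synthesis, at 0.25 ± 0.10 (SE; unadjusted p = 0.0263, adjusted p = 0.643, edgeR) and the mitochondrial *Glrx2* at 0.15 ± 0.11 (SE), which ran from 0.07 to 0.24 with single samples left out. Genes of glutathione synthesis and recycling had 7 of 10 above 0 (median 0.07), with *Gclc*, the catalytic subunit of the first enzyme of glutathione synthesis, at 0.25 ± 0.11 (SE; unadjusted p = 0.0423, adjusted p = 0.643, edgeR). With *Pou4f3(Δ/+)* sample 3 alone *Gclc* was 0.02 ± 0.11, and leaving out single samples gave 0.18 to 0.36. In heme breakdown and iron storage 4 of 6 were above 0 (median 0.05), and the ferritin chains *Fth1* and *Ftl1* were the most abundant genes of that list, at 2066 and 1104 FPKM over the 6 samples. *Blvrb*, a biliverdin reductase abundant in red blood cells, stood at 0.33 ± 0.15 (SE; unadjusted p = 0.0582, edgeR) and the constitutive heme oxygenase *Hmox2* at -0.11 ± 0.08 (SE). Leaving out single samples gave 0.21 to 0.46 for *Blvrb* and -0.15 to -0.06 for *Hmox2*, and *Blvrb* was 0.05 with *Pou4f3(Δ/+)* sample 3 alone.

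Among *Nfe2l2*, its relatives, partners and regulators, 8 of 13 were above 0 (median 0.05). *Nfe2*, the erythroid and megakaryocyte relative of Nrf2, stood at 0.24 ± 0.11 (SE; unadjusted p = 0.0496) and *Nfe2l3* at -0.71 ± 0.24 (SE; unadjusted p = 0.0152), each with an adjusted p of 0.643 in edgeR. *Nfe2* was 0.16 without *Pou4f3(Δ/+)* sample 2, 0.35 without sample 3 and 0.00 with sample 3 alone. *Nfe2l3* was -0.48 ± 0.23 without wildtype sample 5 and -0.87 ± 0.24 without wildtype sample 3 (SE). *Nfe2*, *Glrx5* and *Blvrb* are used by erythroid cells, and the erythroid sums were 9988 to 14112 CPM in *Pou4f3(Δ/+)* against 9136 to 10745 CPM in wildtype samples. *Glrx5* was as high with *Pou4f3(Δ/+)* sample 3 alone (0.26 ± 0.14, SE), the mutant sample with the lowest erythroid sum, and stood at 56.5, 58.7 and 58.1 CPM in the 3 mutant samples. The part of erythroid cells in these values was not tested. Of the 27 Nrf2 target genes 11 were above 0 and 16 below (median -0.08), from *Gstm1* at -0.43 to *Gstp1* at 0.80. In edgeR 0 passed the adjusted test. *Gclc* (higher), *Gstm1*, *Gsta4* and *Ephx1* (lower) had an unadjusted p under 0.05, again beside 7.64% of all genes. *Ephx1*, the microsomal epoxide hydrolase, had a log2 fold change of -0.31 ± 0.12 (SE; unadjusted p = 0.027, edgeR). With *Pou4f3(Δ/+)* sample 3 alone *Ephx1* was -0.09 ± 0.13 and *Gsta4* -0.02 ± 0.10. On the side of superoxide production, the 8 tested genes of NADPH oxidases and their subunits had 3 above 0 and 5 below (median -0.03), from *Noxo1* at -0.45 ± 0.29 (SE) to *Ncf4* at 0.06 ± 0.10, and none had an unadjusted p under 0.05. *Noxo1* was -0.23 ± 0.29 without *Pou4f3(Δ/+)* sample 1 and -0.84 ± 0.21 without sample 3.

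**Figure D5:**
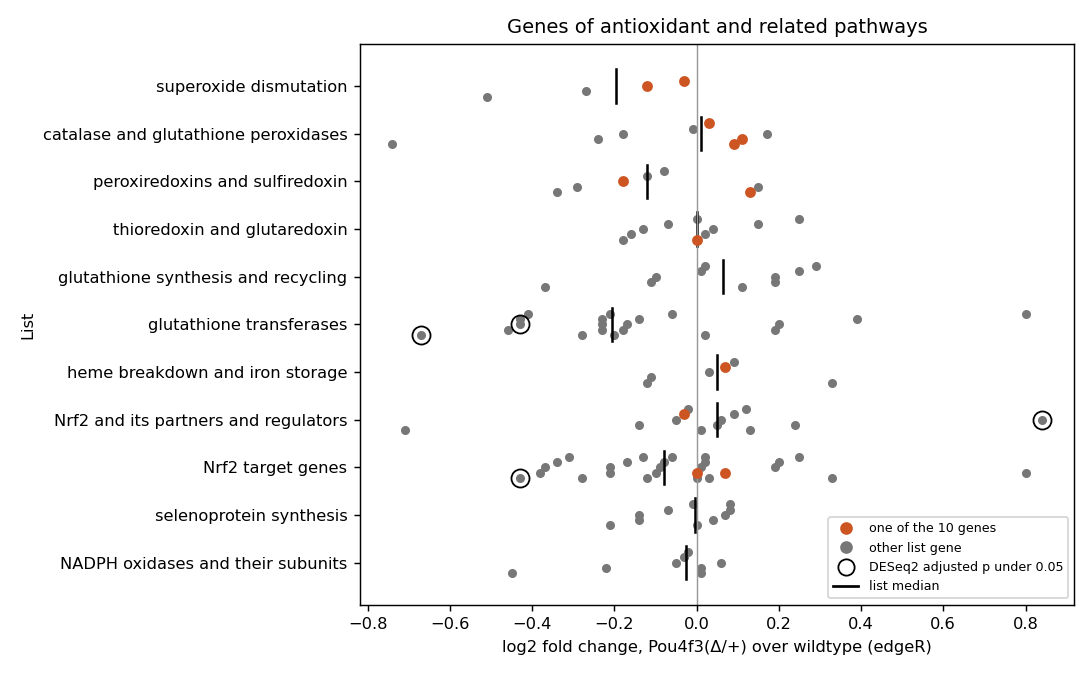
Log2 fold changes (edgeR, *Pou4f3(Δ/+)* over wildtype) of the tested genes in 11 lists of antioxidant and related pathways, with the 10 antioxidant defence genes in orange, other genes in grey, list medians as bars and genes called by DESeq2 ringed. The 10 genes lie between -0.18 and 0.13, and the glutathione transferases have the lowest median (-0.20).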

How the data were processed

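The authors sequenced 3 wildtype and 3 *Pou4f3(Δ/+)* samples of cochlear RNA with paired-end reads. Per the labels, poly(A) RNA was isolated or ribosomal RNA removed, without saying which. For 128603 transcripts the authors deposited expected counts (estimates, not normalized, 77.8% of positive values not whole at a tolerance of 0.001), FPKM values, scaled by the authors to transcript length and sample depth, and lengths. The submitters' notes name DESeq2 and the build mm8, while 99.5% of the transcripts are in GENCODE M21 (GRCm38), from which positions are given. The aligner and counting program are not given in the sources used here.

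Expected counts were summed per symbol, rounded, filtered with filterByExpr (minimum count 10, total 15), TMM-normalized and tested in edgeR 4.0.16 (R 4.3.3; quasi-likelihood, no covariates, Benjamini-Hochberg over all features, threshold 0.05), likewise per transcript. The tests were checked on simulated data. FPKM were summed per symbol and compared with exact permutation tests. Alternatives were DESeq2 1.42.0, its size factors, no filter, limma-trend 3.58.1 on log2(FPKM + 0.5), with 0.1 and 1 added, and with a mean FPKM of at least 1, a threshold of 0.1, each sample left out, and *Pou4f3(Δ/+)* sample 3 alone. Total counts were 14295069 to 17696784 per sample. Genes and lists were chosen with earlier results of these data known. The text names the 10 genes, transcripts with at least 10% of a gene's FPKM, and genes among the 2 most abundant and the 2 with the smallest p of each list. *Pou4f3*, *Pstk*, *Sephs1*, *Gstp1*, *Gm8566*, *Trmt112*, *Gpx4-ps2*, *AC122253.3* and the transcript ENSMUST00000193987 were added after their values were seen.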

Additional observations from a re-analysis of the deposited data

How the results depend on the processing

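The 10 antioxidant defence genes and their transcripts gave 0 calls in every alternative run. Over all genes edgeR called 0, DESeq2 64, edgeR with no filter 9, and *Pou4f3(Δ/+)* sample 3 alone against wildtype 6, where the lone sample is assumed to vary like the others. Leaving out a sample gave 0 to 193 called genes (193 without *Pou4f3(Δ/+)* sample 3, 3 without wildtype sample 4). Over all transcripts DESeq2 called 130, no filter 1, and leaving out a sample 0 to 3 (3 without wildtype sample 3, 1 without *Pou4f3(Δ/+)* sample 3). In the 11 lists DESeq2 called 3 genes, 10 had an unadjusted p under 0.05, and leaving out a sample gave 0 to 2. The causes were not tested. For the macrophage markers the direction depended on the measure. The log2 ratio of their sums, *Pou4f3(Δ/+)* over wildtype, was -0.11, while their mean log2(CPM + 1) was 0.08 higher in *Pou4f3(Δ/+)* samples.

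Several differences that were not called changed sign. With *Pou4f3(Δ/+)* sample 3 alone the log2 fold changes became 0.05 (*Sod1*), -0.06 (*Gpx1*), 0.07 (*Prdx5*), -0.13 (*Txnrd1*), -0.32 (*Gpx2*), -0.07 (*Txnip*), 0.03 (*Txn1*), -0.06 (*Gsr*), -0.05 (*Fth1*), -0.05 (*Selenop*), 0.09 (*Secisbp2l*), -0.04 (*Ncf1*) and 0.13 (*Noxo1*). In the 4 limma-trend fits they were -0.01 (*Txnrd1*), 0.01 (*Secisbp2l*) and -0.01 (*Ncf1*), and *Txn1* was 0.00 in DESeq2, with its size factors and with no filter. Leaving out each sample gave -0.07 to 0.02 (*Sod1*), -0.03 to 0.07 (*Txnrd1*), -0.13 to 0.21 (*Hmox1*), -0.09 to 0.01 (*Nfe2l2*), -0.16 to 0.19 (*Gpx3*), -0.05 to 0.37 (*Gpx2*), -0.09 to 0.13 (*Txnip*), -0.07 to 0.08 (*Txn1*), -0.10 to 0.08 (*Gsr*), -0.05 to 0.11 (*Fth1*), -0.03 to 0.05 (*Sqstm1*), -0.05 to 0.07 (*Secisbp2l*), -0.07 to 0.06 (*Ncf1*), -0.09 to 0.11 (*Cyba*) and -0.03 to 0.13 (*Ncf4*). No paired analysis was possible because nothing listed links single wildtype samples to single *Pou4f3(Δ/+)* samples. The sample numbers are not said to mark pairs. Groups of 3 samples limit the precision.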
